A study of Rattus norvegicus with 8 samples.

Results

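Cytosolic ribosomal protein transcripts were examined in the ovaries of rats given the androgen dihydrotestosterone (DHT) and of control (CTL) rats. The set was defined by name alone, as every gene whose array symbol is Rpl or Rps and a number, together with the stalk proteins Rplp0, Rplp1 and Rplp2 and with Rpsa, while pseudogenes and like-named genes were left out. It held 42 genes out of 14217 that the array reads by a probe set with a single gene symbol, a probe set being the group of short probes that reports 1 transcript. Where a gene has several such probe sets, the one that was brightest on average over the 6 single-animal arrays was taken. Another 33 probe sets carry a cytosolic ribosomal protein symbol beside other symbols, so no single gene can be named for them and they are described apart. No probe set carries Rplp1, Rplp2, Rps27a, Rpl10 or Rps4x as its only symbol, and these genes have no value here.

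Ribosomal proteins and ribosomal RNAs build the large and the small subunit of the ribosome, the machine that translates mRNA into protein. Their mRNAs are among the most abundant of any growing cell, mostly short, and begin with a run of pyrimidines at the cap (the 5′ terminal oligopyrimidine tract, or TOP), through which nutrient and growth signals acting on the kinase mTOR turn their translation up or down together. In the ovary, growing follicles and the corpus luteum both depend on heavy protein synthesis.

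The DHT group was made of female Sprague-Dawley rats that carried a silicone capsule releasing DHT for 12 weeks, and the CTL rats carried an empty capsule for the same time. Ovarian cortex was taken from all animals at the age of 15 weeks. There were 8 arrays, 3 of single DHT rats, 3 of single CTL rats and 2 of pooled RNA, 1 per group. Each pool held RNA of the 3 animals of its group. Corpora lutea were seen in most CTL ovaries, while the DHT ovaries held none or hardly any. In RNA of whole tissue fewer cells of a type and less RNA per cell cannot be told apart. The granulosa cell factor Foxl2 read 8.91, 8.64 and 8.73 in DHT and 8.81, 8.78 and 8.42 in CTL, and this marker of the ovary was present on every array. All values below are log2 expression after GCRMA, a normalization that corrects each probe for background by its base composition. Levels of different genes come from different probes and are not set against each other.

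CTL replicate 3 stood apart from the other arrays over the whole table. Its median over all 31042 probe sets was 3.25 against 2.97 to 3.03 on the other arrays, and 131 probe sets reached a log2 value of 10 on it against 261 to 371 elsewhere. The array carries control probe sets at either end of the Gapdh mRNA, and the 3′ value minus the 5′ value, which grows when the labelled RNA is short at its 5′ end, was 3.49 on this array but 0.39 and 0.62 on CTL replicates 1 and 2. On the DHT replicates it was 3.61, 2.99 and 3.98, and on the pooled DHT and pooled CTL arrays 3.72 and 2.62. The spiked-in hybridization controls had a median of 9.79 on CTL replicate 3, 7.69 and 7.45 on the other CTL replicates and 8.18 to 8.44 on the DHT replicates. The ribosomal protein results are therefore given against each CTL array or with and without CTL replicate 3.

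None of the 42 ribosomal protein genes was called in the limma comparison of 3 DHT with 3 CTL arrays, where a call required at least a 2-fold change, a p no higher than 0.01 and a false discovery rate no higher than 10%. The same criteria called 0.680% of all probe sets higher in DHT. The authors, who state the same cutoffs, list Rpl7 and Rpsa by symbol among genes with increased mRNA in DHT, unlike this comparison. The probe sets behind their listing are not named there. The direction was nearly uniform, with a positive log2 fold change for 41 of the 42 genes and for 11645 of the 31042 probe sets, and a median of 0.92 against -0.03 over all probe sets. At a false discovery rate of 10% without a fold change minimum, 2 members passed, both higher in DHT, namely Rps28 and Rpl39, and that rule called 1.39% of all probe sets higher. At an unadjusted p of 0.05, 9 members and 3681 of all probe sets passed in limma. Neither Rps28 nor Rpl39 passed when any 1 DHT array, CTL replicate 1 or CTL replicate 2 was left out. Without CTL replicate 3, 19 members passed, all higher in DHT, while 8.11% of all probe sets were called higher.

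Among the 42 genes, the 3 DHT values all lay above the 3 CTL values for 25 and below them for none, whereas 10.6% of all probe sets had every DHT value above every CTL value. The DHT animals were close to each other, with a median SD over members of 0.09, and the CTL animals were far apart, with a median SD of 1.05. Over all probe sets these medians were 0.07 in DHT and 0.24 in CTL. They were 0.16 and 1.05 for 34 translation initiation factors and 0.18 and 1.03 for 30 proteasome subunits. Over the 42 genes, CTL replicates 1 and 2 differed by a median of 0.11, while CTL replicate 3 differed from their mean by a median of -1.83. CTL replicate 3 was the lowest of the 6 arrays for 36 of the 42 genes (85.7%), against 21.7% of all probe sets. It lay 2-fold or more below the mean of CTL replicates 1 and 2 for 31 genes (73.8%), against 4359 of the 31042 probe sets. All probe sets include 9937 that were near background on all 6 arrays, and other gene groups are compared below.

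**Figure D1:**
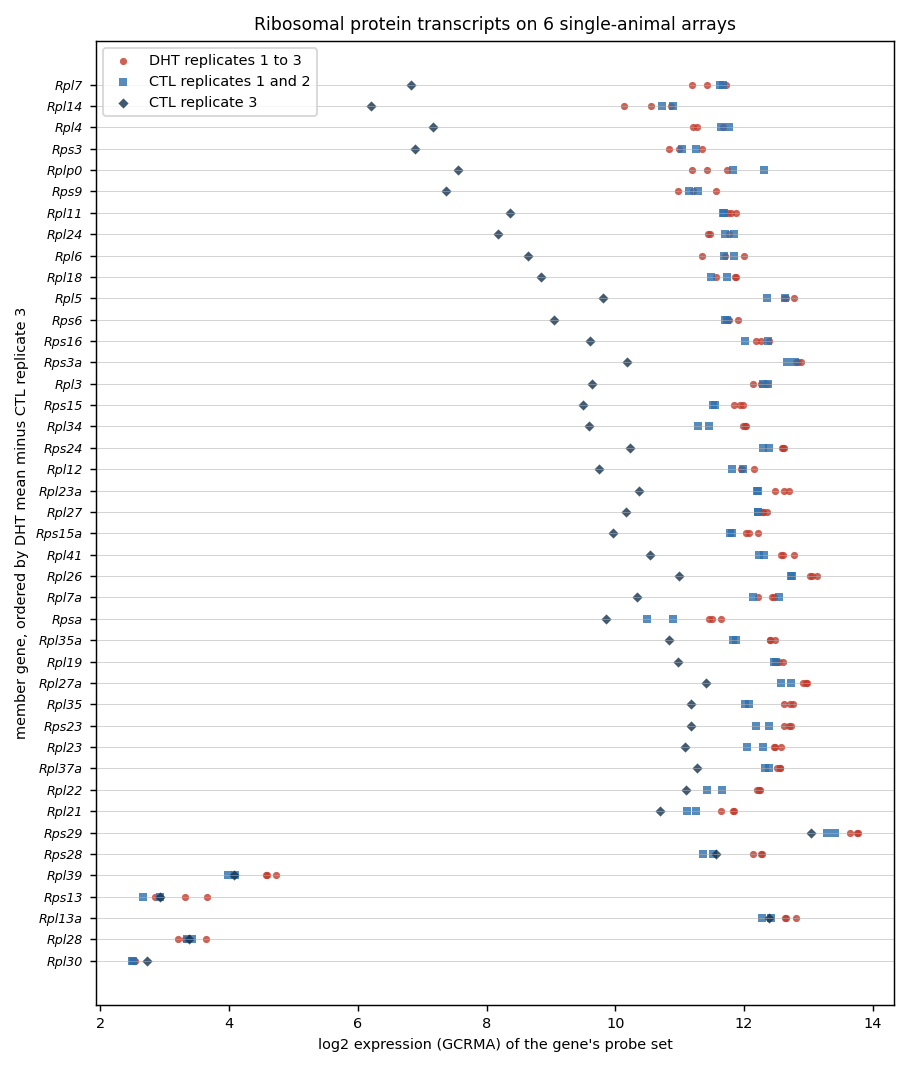
Log2 expression of the 42 ribosomal protein genes (rows) on the 3 DHT arrays (red circles), CTL replicates 1 and 2 (blue squares) and CTL replicate 3 (dark diamonds), ordered by the DHT mean minus CTL replicate 3. CTL replicate 3 is the lowest array for 36 genes, while the other 5 arrays lie close together.

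For 38 genes the mean over the 6 arrays was 6 or more, and these are called bright here. Their median level was 12.25, 12.28 and 12.22 on the DHT arrays, 12.04 and 11.82 on CTL replicates 1 and 2, and 10.07 on CTL replicate 3. On the pooled DHT and pooled CTL arrays it was 12.24 and 11.87. All 38 read 10 or more on every array except CTL replicate 3, where 19 did. The 26 bright genes of the large subunit and the 12 of the small subunit had median log2 fold changes of 0.92 and 0.97. Without CTL replicate 3 these medians were 0.17 and 0.29. In that fit 11 of the 26 and 7 of the 12 were higher at a false discovery rate of 10%, as were 8.11% of all probe sets.

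The remaining 4 genes read under 6 on average. Rpl30 read 2.52, 2.51 and 2.54 in DHT and 2.51, 2.49 and 2.73 in CTL, at or below the background level of every array, which was 2.62 to 3.05. Rpl28 read 3.21, 3.31 and 3.64 in DHT and 3.34, 3.42 and 3.37 in CTL, and Rps13 read 2.85, 3.32 and 3.65 against 2.92, 2.66 and 2.93. The groups overlapped for all of these. Rpl39, a small protein that lines the tunnel through which the nascent chain leaves the ribosome, read 4.59, 4.73 and 4.57 in DHT and 3.99, 4.09 and 4.08 in CTL. Every DHT value was above every CTL value, and the log2 fold change was 0.58 with a standard error of 0.07 and an adjusted p of 0.0629 in limma.

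Against the single CTL arrays the picture split. Over all 42 genes the DHT mean exceeded CTL replicate 1 by a median of 0.17, CTL replicate 2 by 0.29 and CTL replicate 3 by 2.15. The range was -0.86 to 0.71 for CTL replicate 1, -0.37 to 1.04 for CTL replicate 2 and -0.21 to 4.62 for CTL replicate 3. The medians over all probe sets were 0.02, 0.03 and -0.10. The pooled DHT RNA exceeded the pooled CTL RNA by a median of 0.32, for 39 of the 42 genes, and by 2-fold for none. The pooled CTL array lay above the log2 of the mean signal of its 3 single arrays by a median of 0.29, while for DHT the same quantity was -0.01. These differences from 1 array have no test.

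**Figure D2:**
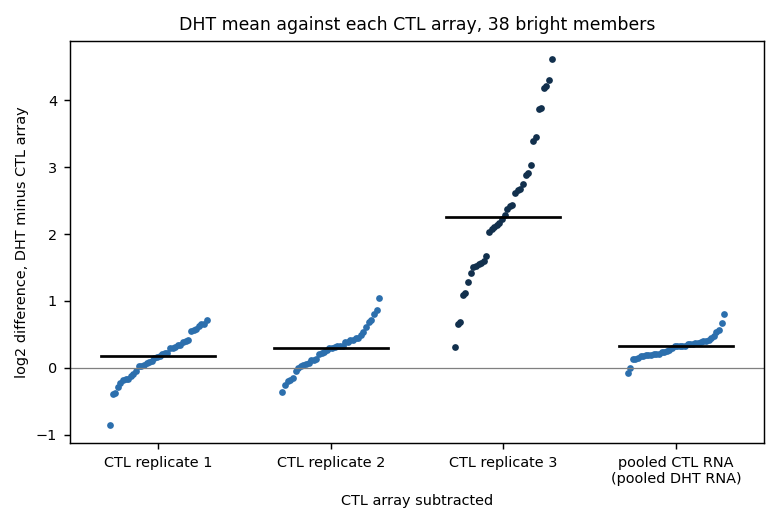
Log2 difference between the mean of 3 DHT arrays and each CTL array, and between the pooled DHT and pooled CTL arrays, with 1 point per bright gene (n = 38) sorted by size and a bar at the median. The medians are 0.17, 0.29, 2.25 and 0.32, and only the difference from CTL replicate 3 reaches 4.62.

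The differences from CTL replicate 3 were largest for Rpl7, Rpl14, Rpl4 and Rps3. Rpl7, a large subunit protein that binds ribosomal RNA, read 11.42, 11.72 and 11.19 in DHT, 11.67 and 11.62 on CTL replicates 1 and 2 and 6.82 on CTL replicate 3. The last value is 28.4-fold below the mean of the other CTL replicates. The limma log2 fold change of Rpl7 was 1.41 with a standard error of 1.42 and an adjusted p of 0.896, and it turned to -0.20 without CTL replicate 3. Rpl14 read 10.55, 10.87 and 10.13 in DHT, 10.89 and 10.72 on the first CTL replicates and 6.20 on CTL replicate 3. Rpl4, whose long loop reaches into the exit tunnel, read 11.27, 11.67 and 11.21 in DHT against 11.77, 11.64 and 7.17 in CTL. For all of these genes the DHT animals overlapped with CTL replicates 1 and 2, and CTL replicate 3 lay far below both.

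CTL replicate 3 was far below the other 5 arrays for the next genes too, with differing order among those 5. Rplp0, the base of the stalk that recruits elongation factors and a common reference gene, read 11.43, 11.73 and 11.19 in DHT and 12.31, 11.82 and 7.56 in CTL. It was the only member for which every DHT value was below CTL replicates 1 and 2, and its log2 fold change went from 0.89 to -0.61 without CTL replicate 3, with adjusted p of 0.896 and 0.235 in limma. Rpl11, which together with Rpl5 can bind Mdm2 and so stabilize p53 when ribosome assembly fails, read 11.80, 11.88 and 11.75 in DHT and 11.67, 11.68 and 8.36 in CTL. Rpl5 read 12.62, 12.77 and 12.65 against 12.64, 12.36 and 9.80.

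In the small subunit the same split appeared. Rps3, which lies where mRNA enters the ribosome, read 10.99, 11.35 and 10.84 in DHT and 11.25, 11.04 and 6.88 in CTL, and Rps9 read 11.20, 11.56 and 10.98 against 11.29, 11.14 and 7.37. Rps6, the classical substrate of the S6 kinases, read 11.75, 11.91 and 11.76 in DHT and 11.71, 11.74 and 9.05 in CTL. Its DHT values were all higher, yet the DHT mean exceeded CTL replicates 1 and 2 by only 0.09 and 0.07, and the adjusted p was 0.859 in limma and 0.439 without CTL replicate 3.

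At the other end of the order stood genes whose CTL replicates were alike. Rps28, at the exit channel of mRNA on the small subunit, read 12.28, 12.14 and 12.26 in DHT and 11.51, 11.36 and 11.56 in CTL. The groups did not overlap, CTL replicate 3 was the highest of the CTL arrays, and the log2 fold change was 0.75 with a standard error of 0.08 and an adjusted p of 0.0558 in limma. Between the pooled arrays the difference was 0.40. Rpl13a, which in other cells is released from the ribosome to silence inflammatory mRNAs, read 12.63, 12.65 and 12.81 in DHT against 12.28, 12.41 and 12.39 in CTL. The difference of 0.34 did not pass, with an adjusted p of 0.171. Rps29, a zinc-binding protein of the small subunit, read 13.77, 13.64 and 13.76 in DHT against 13.41, 13.29 and 13.04 in CTL, with a difference of 0.48 and an adjusted p of 0.177.

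Rpl22, which is dispensable for translation in general but needed by developing T lymphocytes, read 12.23, 12.20 and 12.24 in DHT and 11.65, 11.42 and 11.10 in CTL. Its log2 fold change of 0.83 with a standard error of 0.15 missed the threshold, with an adjusted p of 0.106 in limma. Rpl21 read 11.64, 11.83 and 11.85 against 11.12, 11.25 and 10.69, with a difference of 0.76 and an adjusted p of 0.154. Rpl34 read 12.03, 11.99 and 12.02 in DHT and 11.45, 11.29 and 9.59 in CTL. Rpl37a read 12.56, 12.51 and 12.56 against 12.38, 12.33 and 11.27, and Rpl19, another frequent reference gene, 12.54, 12.60 and 12.50 against 12.47, 12.49 and 10.98. For each of these genes every DHT value was above every CTL value, and CTL replicate 3 was the lowest array.

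Most of the genes with a sequence had a run of pyrimidines near the annotated start. The stretch from 250 bases before to 50 bases after the annotated start was found in RefSeq (rat build GRCr8) for 37 of the 42 genes, and none was found for Rpl7, Rps29, Rpl30, Rpl27 and Rpl23a. An unbroken run of 5 or more pyrimidines on the coding strand, with at least 1 base within 10 bases of the start, was present in 32 of the 37 (86.5%), against 44.4% of 33469 promoters. The longest such run of each gene had 5 to 24 bases, with a median of 11.5. The other genes with a sequence, Rpl11, Rpl18, Rps16, Rpl41 and Rpl26, had no such run there. The annotated first base was C for 15 (40.5%), against 24.1%. Searched on both strands over this whole stretch, TATAAA was present in 4 genes (10.8%, against 14.2% of all promoters), CCGGAA in 14 (37.8%, against 15.0%) and AAGATGG, which holds an ATG, in 8 (21.6%, against 7.01%). The 60 bases from 40 before the start are shown for the 3 genes with the largest and, after them, the 3 bright genes with the smallest difference from CTL replicate 3 that have an entry, with the whole of the longest pyrimidine run in capitals.
Rpl14, chr8:129163580-129163639, plus strand: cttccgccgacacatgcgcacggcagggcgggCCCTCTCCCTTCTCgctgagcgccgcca
Rpl4, chr8:73566437-73566496, plus strand: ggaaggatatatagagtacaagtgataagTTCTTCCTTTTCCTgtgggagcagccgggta
Rps3, chr1:163195757-163195816, minus strand: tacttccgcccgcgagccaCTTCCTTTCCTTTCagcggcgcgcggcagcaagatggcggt
Rpl21, chr12:13386134-13386193, minus strand: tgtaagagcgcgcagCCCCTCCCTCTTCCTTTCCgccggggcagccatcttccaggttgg
Rps28, chr7:15311314-15311373, minus strand: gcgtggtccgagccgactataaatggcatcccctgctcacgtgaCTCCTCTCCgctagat
Rpl13a, chr1:104748894-104748953, minus strand: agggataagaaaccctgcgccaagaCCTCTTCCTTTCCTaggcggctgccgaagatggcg
Genes at both ends of the order held such a run. Of those shown, the run covered the annotated first base only for Rpl14 and Rpl4. It ended before that base for Rps3, Rpl21 and Rpl13a and began after it for Rps28. Whether these runs are TOP tracts was not tested.

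Without CTL replicate 3 the set as a whole shifted far less, and a subset of its genes passed. The median log2 fold change of the 42 genes fell from 0.92 to 0.18, 34 genes were positive, and the range was -0.61 for Rplp0 to 0.84 for Rpsa. No member met the criteria with the 2-fold minimum, which called 2.11% of all probe sets higher. At a false discovery rate of 10% at any fold, 19 of the 42 were higher in DHT and none lower, while 8.11% of all probe sets were called higher. This fit sets 3 DHT arrays with Gapdh differences of 2.99 to 3.98 against 2 CTL arrays with 0.39 and 0.62, so treatment and this RNA measure cannot be told apart in it. With all 6 arrays and the Gapdh difference as a covariate, the median over the 42 genes was 2.08 and 35 were called higher with the 2-fold minimum, as were 8.57% of all probe sets. Among the single-animal CTL arrays, which this fit uses, only replicate 3 had a large Gapdh difference, 3.49, so the covariate is tied to that array. The pooled CTL array, which is not in the fit, had 2.62. The median of 2.08 is near the 2.15 by which the DHT mean exceeded CTL replicate 3 alone. This fit cannot tell the RNA measure apart from that array or from treatment either.

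Most of the 19 genes lay near the small end of the order by difference from CTL replicate 3. Among the 13 bright members closest to CTL replicate 3, 11 passed, and the median difference from CTL replicates 1 and 2 was 0.40. Among the 13 farthest from it 0 passed, and the median was -0.09. The order and the fit share the DHT arrays, so these counts are a description. The changes of the 19 were small, from 0.19 for Rpl37a, with an adjusted p of 0.0464, to 0.84 for Rpsa, with an adjusted p of 0.0571 in limma. Rps28 rose by 0.79 (standard error 0.07, adjusted p 0.0262), Rpl22 by 0.69 (0.08, 0.0317), Rpl35 by 0.65 (0.05, 0.0223), Rpl34 by 0.64 (0.06, 0.0250) and Rpl35a by 0.58 (0.04, 0.0182) in this limma fit. Rpl35 and Rpl35a, both of the large subunit, were named after their values were seen.

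**Figure D3:**
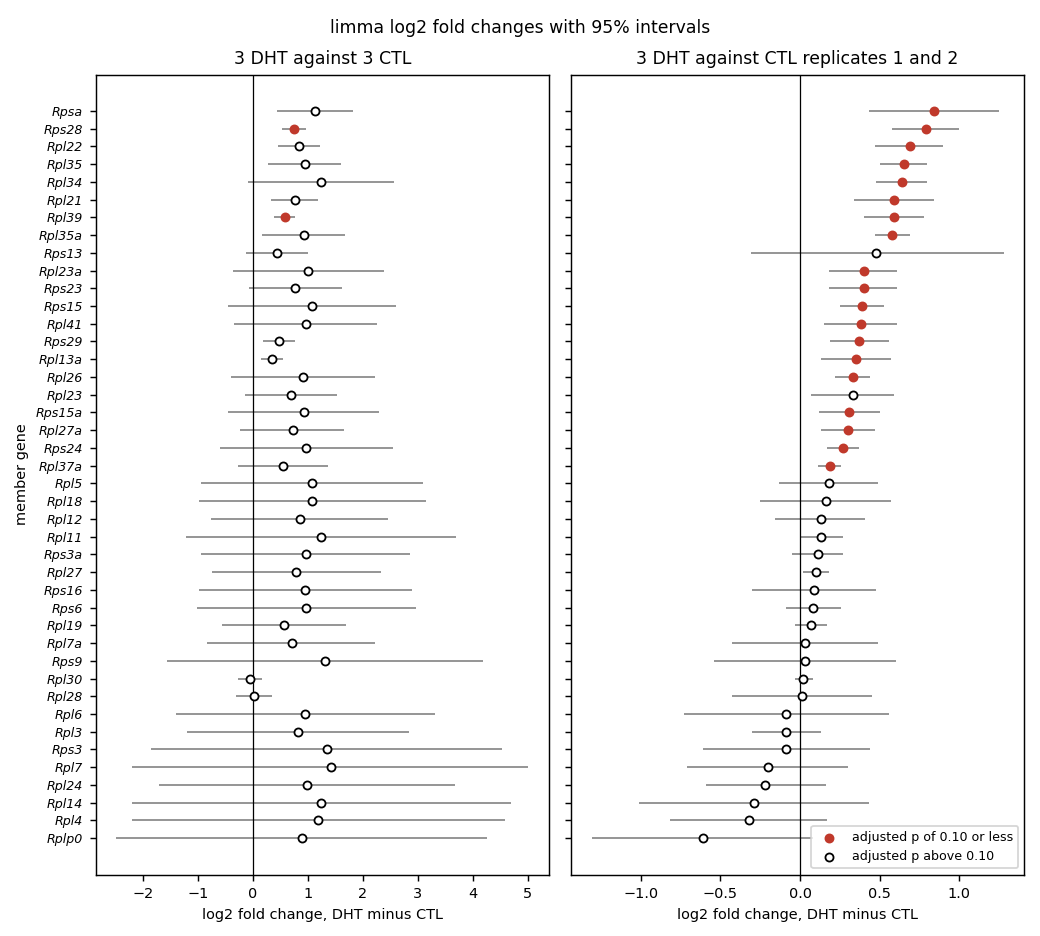
Log2 fold changes (DHT minus CTL) of the 42 genes with 95% intervals from limma, with all 3 CTL arrays (left) and without CTL replicate 3 (right), in the same row order on different horizontal scales. Filled red points have an adjusted p of 0.10 or less, 2 genes on the left and 19 on the right.

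The ribosomal protein genes also differed among the DHT animals, in the same order and on a smaller scale. DHT replicate 3 minus DHT replicate 2 ranged from -0.74 for Rpl14 to 0.16 for Rpl13a over the 38 bright genes. Over these genes it had a Pearson correlation of 0.90 and a Spearman correlation of 0.90 with CTL replicate 3 minus the mean of CTL replicates 1 and 2, a pair of differences that share no array. Over all 31042 probe sets the correlations were 0.45 and 0.43. The difference was -0.51 for Rps3 and -0.55 for Rplp0, whereas Rps28 and Rps29 were each higher on replicate 3. The Gapdh difference was 3.98 on DHT replicate 3, the largest of the 6 arrays, and 2.99 on DHT replicate 2, the smallest of the DHT arrays. Genes are not independent replicates, and the part of RNA quality in this order was not tested.

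**Figure D4:**
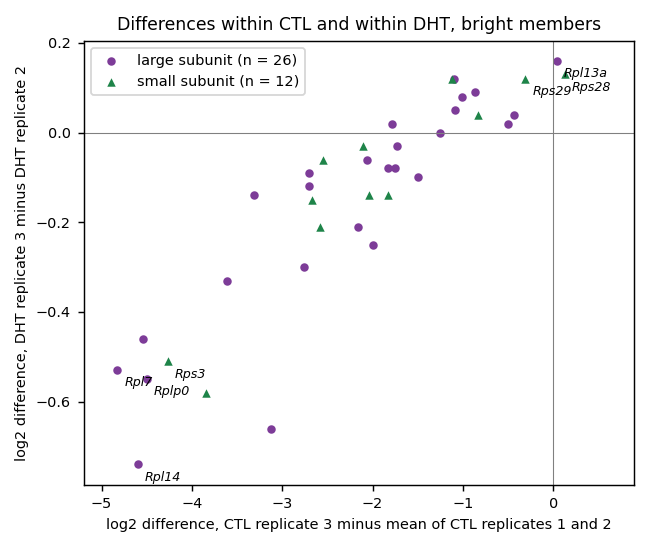
Each point is a bright ribosomal protein gene (circles large subunit, triangles small subunit), with its log2 difference of CTL replicate 3 from the mean of CTL replicates 1 and 2 on the horizontal axis and of DHT replicate 3 from DHT replicate 2 on the vertical axis, on unequal scales. Genes such as Rpl7, Rpl14, Rplp0 and Rps3 lie low on both axes, and Rps28, Rpl13a and Rps29 lie high on both (Pearson correlation 0.90 over 38 genes).

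Where 1 gene had several probe sets, they did not always tell the same story. This was the case for 5 genes, Rpl3, Rpl7, Rpl14, Rps24 and Rpsa. Rpsa, the laminin receptor and small subunit protein, stands for a probe set that read 11.64, 11.46 and 11.50 in DHT and 10.89, 10.49 and 9.86 in CTL, with a log2 fold change of 1.12 and an adjusted p of 0.18 in limma. Its second probe set read 10.73, 11.22 and 10.34 in DHT against 11.36, 11.10 and 6.65 in CTL, and without CTL replicate 3 its difference was -0.47, of the opposite sign. The third read 9.12, 8.92 and 8.78 against 8.29, 8.17 and 7.90, with a difference of 0.82 and an adjusted p of 0.103. Probe set names that end in s or x mark probes that also match other transcripts, which is so for the first and the last of Rpsa, and the many processed pseudogenes of ribosomal proteins leave such readings uncertain.

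The other probe sets of Rps24, Rpl3 and Rpl14 were dimmer than the ones taken. The second of Rps24 read 5.88, 6.07 and 5.77 in DHT and 5.08, 5.21 and 4.98 in CTL. All DHT values were above all CTL values, the CTL arrays were alike, and the difference of 0.82 had an adjusted p of 0.0673 in limma, whereas the probe set taken for Rps24 gave 0.97 with an adjusted p of 0.701. The second of Rpl3 gave 0.42 (adjusted p 0.788 in limma) and the second of Rpl14 gave -0.30 (adjusted p 0.896), with CTL replicate 3 the highest CTL array for both.

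Rpl7 also has a second, dimmer probe set that read 5.69, 4.88 and 5.60 in DHT and 3.41, 3.19 and 4.67 in CTL. There every DHT value was above every CTL value and CTL replicate 3 was the highest of the CTL arrays, in contrast to the first probe set. The difference was 1.63, with an adjusted p of 0.25 in limma, and 2.09 without CTL replicate 3, with an adjusted p of 0.0454. Without that array this second probe set, which does not stand for Rpl7 in the set, met the criteria with the 2-fold minimum. So did 2.11% of all probe sets, in the higher direction. The 33 probe sets with several symbols behaved like the members, with 33 positive log2 fold changes, a median of 1.04, and CTL replicate 3 as the lowest array for 31. Without CTL replicate 3 their median was 0.24, and 13 were higher at a false discovery rate of 10%, as were 8.11% of all probe sets.

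Other parts of the translation machinery were lower on CTL replicate 3 too, to differing degrees. Rack1, a scaffold protein of the small subunit whose name keeps it out of the set, read 11.55, 11.57 and 11.45 in DHT and 11.46, 11.22 and 8.22 in CTL. For 13 elongation factors and other mRNAs known for a 5′ pyrimidine tract the median log2 fold change was 0.98, and the DHT mean exceeded the 3 CTL replicates by medians of 0.05, 0.44 and 1.69. Within this group 1 gene passed at a false discovery rate of 10%, the initiation factor subunit Eif3h, at 11.00, 11.11 and 11.09 in DHT and 10.28, 10.04 and 10.07 in CTL (log2 fold change 0.93, adjusted p 0.0508 in limma). Eif3h is also listed among 34 initiation factors, whose median was 0.43, with 1 gene passing and differences of -0.21, -0.10 and 1.65 from the 3 CTL replicates. Without CTL replicate 3 the median of the 34 initiation factors was -0.17, and 12 were positive. At a false discovery rate of 10%, 4 of them were then higher and 6 lower, as were 8.11% and 7.54% of all probe sets. The median of the 13 elongation factors and like mRNAs was then 0.38, with 5 higher and 0 lower.

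Genes that serve to make ribosomes, rather than form them, were measured as well. For 40 assembly factors of the nucleolus the median was 0.16, none passed, and the differences from the 3 CTL replicates were -0.07, 0.17 and 0.40. For 24 genes of RNA polymerase I and of growth control of ribosome synthesis the median was 0.46, none passed, and the differences were 0.26, 0.15 and 1.06. The smallest p belonged to Eif4ebp2, a repressor of cap-dependent translation, with a difference of 1.12 and an adjusted p of 0.11 in limma. Without CTL replicate 3, 7 assembly factors were higher and 5 lower at a false discovery rate of 10%, and 5 and 1 of the polymerase I and growth control group. Of all probe sets, 8.11% were then higher and 7.54% lower. A like-named gene left out of the set, Rpl7l1, read 7.15, 7.05 and 7.28 in DHT against 6.49, 6.55 and 6.62 in CTL and passed at a false discovery rate of 10% (0.61, adjusted p 0.0716 in limma). It was the only one of 9 such genes to pass.

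Mitochondrial ribosomal proteins, which serve the separate ribosomes of mitochondria, gave a median of 0.02 over 73 genes, 40 positive and 33 negative, with none called. Against the 3 CTL replicates their medians were -0.31, -0.38 and 0.75. The 30 proteasome subunits, a second large complex of every cell, had a median of -0.23, and -0.82, -0.78 and 0.76 against the single CTL replicates. Without CTL replicate 3, 18 mitochondrial ribosomal proteins and 22 proteasome subunits were lower at a false discovery rate of 10%, a rule that called 7.54% of all probe sets lower, and 2 and 0 were higher. The medians of all these groups were positive against CTL replicate 3, while against CTL replicates 1 and 2 the cytosolic ribosomal proteins were on the positive side and the mitochondrial ribosomal proteins and proteasome subunits on the negative side. CTL replicate 3 was itself low for other groups. Its median difference from the mean of CTL replicates 1 and 2 was -1.83 for the 42 genes and -2.02 for the 38 bright ones. It was -1.82 for initiation factors, -1.78 for proteasome subunits and -1.07 for mitochondrial ribosomal proteins. CTL replicate 3 was the lowest array for 91.2%, 83.3% and 75.3% of these. The same median difference was -1.49 for elongation factors and like mRNAs, -0.71 for the polymerase I group and -0.30 for assembly factors.

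**Figure D5:**
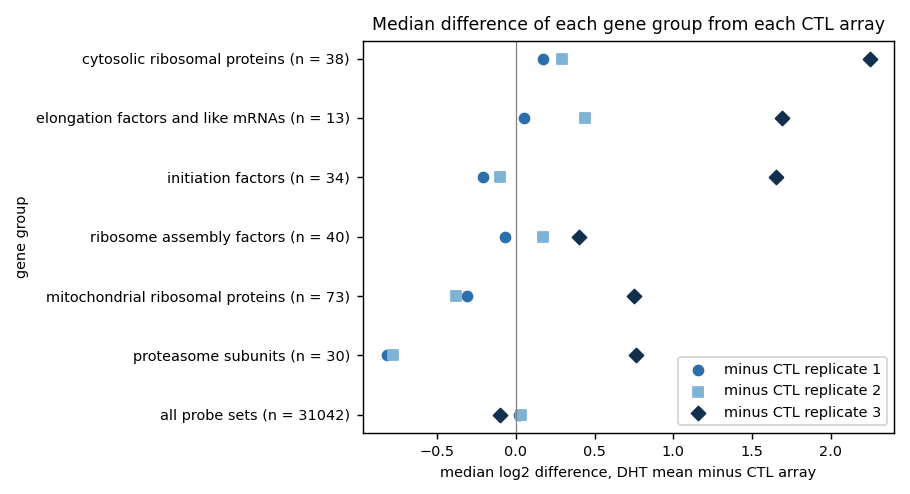
Median log2 difference between the mean of 3 DHT arrays and CTL replicates 1 (circles), 2 (squares) and 3 (diamonds) for gene groups and for all probe sets. The 38 bright cytosolic ribosomal protein genes stand at 0.17, 0.29 and 2.25, the proteasome subunits at -0.82, -0.78 and 0.76.

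The cell makeup of the ovaries differed between the groups, and these values stand beside the ribosomal protein result, in which their part was not tested. Markers of luteal cells, which make progesterone, had negative log2 fold changes for 6 of 6 measured genes with a median of -1.91 and none called, and -2.29 without CTL replicate 3. Their summed level was 12.95, 12.99 and 12.41 in DHT and 13.44, 14.26 and 13.73 in CTL, so the groups did not overlap. Rln1, the luteal hormone relaxin, was near background on 1 DHT array, at 2.49, and Ptgfr, the luteal receptor for prostaglandin F, on all 3. Granulosa cell markers had a summed level of 12.58, 12.34 and 12.56 in DHT against 11.76, 11.93 and 11.17 in CTL, with 5 of 6 positive, a median of 0.59 and none called. The negative one was Cyp19a1, at -2.91 (adjusted p 0.404 in limma). Without CTL replicate 3 the median of the granulosa cell markers was 0.54, 3 of the 6 were positive, and Cyp19a1 was at -2.57. In that fit the inhibin subunit Inha was higher at a false discovery rate of 10% (1.23, adjusted p 0.0636 in limma).

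Markers of dividing cells were positive for 11 of 11 genes, with a median of 0.70, none called, and a summed level of 9.45, 9.46 and 10.21 in DHT against 9.48, 9.04 and 8.51 in CTL. Of 4 theca markers 2 were positive and 2 negative, with a summed level of 11.90, 11.65 and 9.85 in DHT and 12.92, 13.42 and 11.71 in CTL. Insl3, a theca cell hormone, was called higher (3.11, adjusted p 0.0575 in limma, and 2.82 and 0.0336 without CTL replicate 3), while Cyp11a1, the first enzyme of steroid synthesis, was at -3.17 with an adjusted p of 0.29. Of 5 oocyte markers 2 were positive and 3 negative, with a summed level of 6.09 to 6.58 in DHT and 5.25 to 5.77 in CTL. The egg coat protein Zp2 was called higher (1.55, adjusted p 0.087 in limma, and 1.51 and 0.0782 without CTL replicate 3), and Bmp15 and Zp1 were near background on all 6 arrays. Macrophage markers were negative for 12 of 12, with a median of -0.67, a summed level of 8.40 to 8.72 in DHT and 9.11 to 10.33 in CTL, and the protease Ctss was called lower (-1.16, adjusted p 0.0994), as were 0.351% of all probe sets. Without CTL replicate 3 the median of the macrophage markers was -1.20 and 5 were lower at a false discovery rate of 10%, as were 7.54% of all probe sets. Lymphocyte markers had a median of 0.04 over 10 genes, a summed level of 6.09 to 6.24 in DHT and 6.03 to 6.20 in CTL, and Ms4a1, Cd79b and Cd4 near background on all 6 arrays. Of 3 red blood cell markers none was called, and the summed level was 6.97 to 7.81 in DHT, 8.05 and 7.87 on CTL replicates 1 and 2 and 4.63 on CTL replicate 3.

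Genes of tissues outside the ovary were measured as well. Of 7 pancreatic acinar genes, the proteases Cpa1 (5.03, adjusted p 0.0646) and Ctrb1 (4.23, adjusted p 0.0786) were called higher in limma, the summed level was 9.22 to 10.84 in DHT and 5.77 to 6.13 in CTL, and Cel, Cela1, Prss1 and Pnlip were near background on all 6 arrays. Of 8 striated muscle genes none was called, the heart myosin Myh6 being at 11.68, 11.25 and 11.60 in DHT and 5.65, 7.38 and 9.26 in CTL, with an adjusted p of 0.16.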

How the data were processed

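RNA of rat ovarian cortex was read on Affymetrix rat genome arrays after 3′ amplification. The deposited table gives 1 log2 value per probe set and array, which the authors made by GCRMA from the scanned arrays. Its background correction compresses low values. Per the labels, the submitters' processing notes name GCRMA and limma without versions. Every column matched a sample.

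Gene names came from the platform annotation, where 20826 of 31042 probe sets carry 1 symbol, 436 several and 9780 none, and 57 Affymetrix controls were left out. The 3 DHT and 3 CTL arrays of single animals were compared by lmFit and eBayes of limma 3.58.1 (R 4.3.3), with Benjamini-Hochberg adjustment over all 31042 probe sets, and every adjusted p is from limma. The pooled arrays were left out since they repeat the same animals. A value at or below the 95th percentile of 28 smell and taste receptor probe sets on its array was near background, which held on all 6 arrays for 9937 probe sets. A list's summed level is the log2 of its summed linear values.

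Members and lists were chosen with earlier results of these data known. Members named one by one were any called, the 8 most positive and 8 most negative, the 5 of smallest p, and genes picked for their roles, 21 in all, and Rpl5, Rpl35 and Rpl35a were added after their values were seen. From the other lists those called and those of smallest p were eligible. The alternatives were pooled arrays as replicate 4, a replicate block, median scaling, quantile normalization, array weights, a mean-variance trend, removal of dim probe sets, removal of each array, other probe set choices, an adjusted p of 0.05, the Gapdh difference as a covariate, and pool against pool. The fit was tested on simulated data. The number of arrays limits the precision, and the smallest exact permutation p for 3 against 3 is 0.1.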

Additional observations from a re-analysis of the deposited data

How the results depend on the processing

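Of the 42 ribosomal protein genes, 0 met the criteria with the 2-fold minimum in the limma comparison, 1 with the pooled arrays as replicate 4, namely Rpsa, 35 with the Gapdh difference as a covariate, and 0 under each other alternative, including each array left out. The 2 genes past a false discovery rate of 10% at any fold became 8 with the pooled arrays, where 2883 of all 31042 probe sets passed, 12 with array weights, where 5810 passed and the weights were 0.028 on CTL replicate 3 and 1.07 to 7.76 on the other arrays, 40 with the Gapdh covariate (1 of them, Rpl30, lower), where 18885 passed, 1 with dim probe sets left out, and 0 with quantile normalization or a mean-variance trend. With each array left out in turn the number ranged from 0 to 19, the 19 being without CTL replicate 3. The median log2 fold change of 0.92 was 2.08 with that covariate and 0.18 to 1.26 with each array left out, and under the other alternatives it stayed positive. The covariate is tied to CTL replicate 3, the only single-animal CTL array with a large Gapdh difference. The pooled CTL array, with 2.62, was not in that fit. The cause of these shifts was not tested.

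Whether the replicate numbers pair the samples could not be settled with 3 arrays per group. The deviations of same-numbered DHT and CTL arrays from their group means had correlations of -0.0743, 0.443 and 0.342. For arrays of different numbers the correlations ranged from -0.534 to 0.482. With the replicate block, 0 members and 0 of all probe sets passed at a false discovery rate of 10%, against 9 members at an unadjusted p of 0.05, and the median was 0.92. Of 314 values of the 21 named members under the alternatives, 18 had the opposite sign in a fit, 15 passed the criteria only there, and 2 moved between the pooled arrays, where there is no test, to 0.40 for Rps28 and 0.45 for Rpl21. Of the other 279, 2 had the opposite sign between the pooled arrays, within the replicate spread (Rplp0 -0.08, Rpl28 -0.06).

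With each array left out in turn, the log2 fold change ranged from -0.20 to 2.22 for Rpl7, -0.29 to 2.05 for Rpl14, -0.32 to 1.98 for Rpl4, -0.09 to 2.10 for Rps3, -0.61 to 1.76 for Rplp0 and, in other lists, -0.11 to 0.52 for Zp3 and -0.70 to 1.52 for Hbb, each lower end being without CTL replicate 3. For Rpl30 it was -0.10 to 0.02 and for Alas2 -0.08 to 0.01, the upper end being without that array, and for Rpl28 -0.12 to 0.10. With array weights these genes turned too, Rpl7 to -0.14, Rpl14 to -0.20, Rpl4 to -0.31, Rps3 to -0.06, Rplp0 to -0.57, Zp3 to -0.29, Hbb to -0.70, Rpl30 to 0.02, Alas2 to 0.01 and Rpl28 to -0.09. Rpl28 was also at -0.03 with the covariate and -0.01 with the pooled arrays, and with median scaling Rpl30 was at 0.00 and Alas2 at 0.01.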
